A study of Homo sapiens with 6 samples.

Results

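The EGF receptors and their ligands were examined in HK-2 cells, a line of immortalized epithelial cells from the human proximal tubule, with and without exposure to oxidized low-density lipoprotein (OX-LDL). The set was fixed by gene name. It held 3 receptors (EGFR, ERBB2 and ERBB3), 6 ligands (AREG, EREG, HBEGF, TGFA, BTC and NRG1) and the feedback inhibitor ERRFI1, which were 10 of the 58825 genes in the deposited table. Poly(A) RNA had been sequenced in 3 libraries of cultures labelled Control and in 3 libraries of cultures kept with OX-LDL at 25 μg/ml during 48 h. All 6 libraries came from the same line, which carries immortalizing genes of a papillomavirus. The cells had been starved in low serum before OX-LDL was added, and the sources used here do not say whether Control cultures were starved for as long or received a vehicle. No culture with unoxidized LDL was among the 6. The question was how the receptor and ligand mRNAs differed between the groups.

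EGFR is a receptor tyrosine kinase. It is activated when a ligand brings receptor molecules together as dimers, after which docked adaptors pass the signal to the RAS-ERK and PI3K-AKT pathways. ERBB2 has no known soluble ligand and acts as a dimer partner. ERBB3 has a weak kinase and binds neuregulins. The ligands are made as membrane proteins and are released by ADAM proteases. ERRFI1, also called MIG6, is induced by the receptor's own signal and blocks its kinase. In the proximal tubule, EGFR is known for its part in regeneration after injury and, when its activation is prolonged, in fibrosis.

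Total deposited counts lay between 62561347 and 76797607 per library. About 4 deposited counts stood for 1 read pair, so a library's detection limit was set at 12 counts, or 3 read pairs, which covers counting error only. Epithelial markers KRT8, KRT18, KRT19, EPCAM and CDH1 were above that limit in every library, although CDH1 was at most 0.144 FPKM (fragments per kilobase, corrected for sequencing depth). Of 7 proximal tubule markers, PAX8 and MME were above the limit throughout. LRP2 was at 0 counts in every library, and the other 4 were at 46 counts or fewer. Some markers of other cell types were above the limit in every library, namely 2 of 5 fibroblast markers and 2 of 3 leukocyte markers. These were COL1A1 (408 to 836 counts), PDGFRB (19 to 33 counts), CD68 and CD14 (26 to 51 counts). DCN, a fibroblast marker, was at 0. The summed level of the fibroblast markers was between 0.508 and 0.966 FPKM over all libraries, with COL1A1 at 0.467 to 0.932 FPKM. That of 3 endothelial markers was at most 0.0920 FPKM. The summed level of 3 leukocyte markers was 3.11 to 7.74 FPKM in Control and 9.16 to 13.9 FPKM in OX-LDL. Almost all of it was CD68, a lysosomal protein, with 2.77 to 7.56 FPKM in Control and 8.91 to 13.6 FPKM in OX-LDL. PTPRC, the defining marker, was at 0 counts in 5 libraries and at 8 in the remaining one. Between the groups, KRT19 rose from a mean of 5.47 ± 0.481 to one of 20.6 ± 4.83 FPKM and KRT8 from 37.5 ± 6.50 to 65.4 ± 4.96 FPKM, and the summed level of the epithelial markers went from 120 to 145 FPKM in Control to 174 to 224 FPKM in OX-LDL. PAX8 fell from a mean of 46.6 ± 12.9 to one of 19.4 ± 4.17 FPKM. The other epithelial markers KRT18, EPCAM and CDH1 were not called (edgeR adjusted p = 0.123, 0.580 and 0.890). Neither were MME (adjusted p = 0.377) and CD68 (adjusted p = 0.0858). KRT19 and KRT8 were called in all 6 fits that left out 1 library, and PAX8 was not when replicate 1 or 2 of Control, or 1 or 3 of OX-LDL, was left out (edgeR adjusted p up to 0.0709). The part of these shifts in the results was not tested.

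EGFR, AREG and ERBB3 mRNA were lower in OX-LDL than in Control, and EGFR alone kept its call with any 1 library left out. With edgeR's quasi-likelihood test, 3 of the 10 members were lower at an adjusted p-value under 0.05 and 7 were not called, where 15.3% of the 19510 genes tested were called, 7.91% higher and 7.42% lower. With 1 library left out, 2 members (EGFR and AREG) were called without Control replicate 1 or 3. Without Control replicate 2 or any OX-LDL library (replicates 1, 2 and 3), 1 member (EGFR) was called. Of all 19510 genes, 1796, 1161 and 1993 were called without Control replicates 1, 2 and 3. Without OX-LDL replicates 1, 2 and 3, 1262, 2943 and 1163 were called. All 10 members passed the minimum of 0.1 FPKM for the test. At a minimum of 1 FPKM, which ERBB3 did not reach, 2 members and 3152 of 12259 genes were called. No member was called higher, either in edgeR or in DESeq2. At an unadjusted p-value under 0.05 the count was 0 higher and 4 lower in both. The share of all genes at that unadjusted threshold was not counted, so this split has no background. The median log2 fold change of the members was -0.28, beside -0.0043 over all genes tested. In 5 members the FPKM values of the groups did not overlap. Of these, 4 were lower in OX-LDL and 1 was higher, where 37.2% of all genes tested were so separated, 20.5% lower and 16.8% higher. Among called genes with a change larger than 2 times in either direction, which were 3.91% of all genes tested, there was no member. In RNA from whole cultures, fewer cells that express a gene and less RNA of it per cell cannot be told apart.

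**Figure D1:**
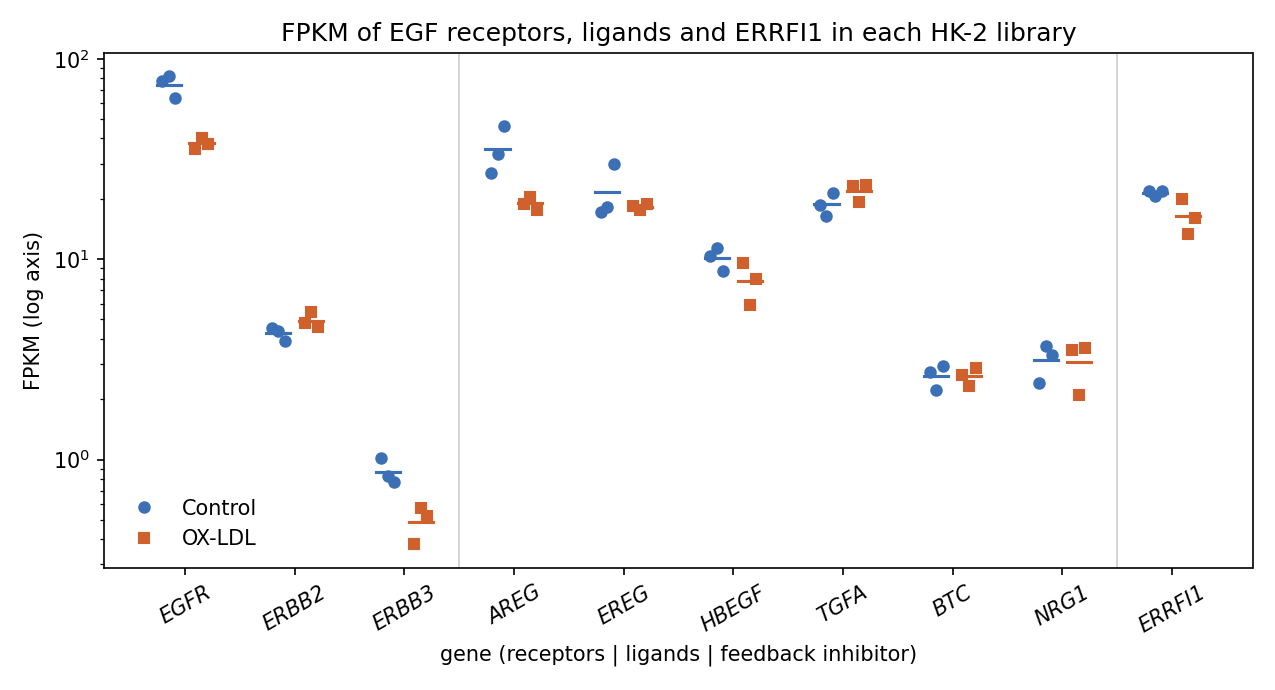
FPKM on a log axis of the 10 members in the 3 Control libraries (circles) and the 3 OX-LDL libraries (squares), with a short line at each group mean. EGFR lay between 63.7 and 81.6 FPKM in Control and between 35.3 and 40.3 FPKM in OX-LDL, while the points of BTC and NRG1 overlapped.

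EGFR (ENSG00000146648; GRCh38 chromosome 7, 55019017 to 55211628, plus strand) was the most abundant receptor. Its level was 77.6, 81.6 and 63.7 FPKM in Control replicates 1 to 3 and 35.3, 40.3 and 37.7 FPKM in OX-LDL replicates 1 to 3. Each OX-LDL library was thus below the lowest Control library. The mean was 74.3 ± 9.40 FPKM in Control and 37.8 ± 2.51 FPKM with OX-LDL (SD, n = 3 each). The log2 fold change was -0.94 with a standard error (SE) of 0.11 and an edgeR adjusted p-value of 0.00402, which places OX-LDL at 52.0% of Control with a 95% interval of the fold from 0.436 to 0.620. EGFR was called in all 6 fits that left out 1 library, with a log2 fold change between -1.04 and -0.88, and under all 9 other settings. The antisense gene EGFR-AS1 overlaps it on the other strand and had 22 to 87 counts per library, beside 32645 to 91203 for EGFR.

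ERBB3 (ENSG00000065361; chromosome 12, 56076799 to 56103499, plus strand) was the least abundant member. It had 1.02, 0.824 and 0.771 FPKM in Control, against 0.377, 0.570 and 0.522 FPKM in OX-LDL. The groups did not overlap. Its mean was 0.870 ± 0.129 FPKM in Control, against 0.490 ± 0.101 FPKM in OX-LDL, which gave a log2 fold change of -0.79 (SE 0.21, edgeR adjusted p = 0.0499). This call was at the threshold. Whichever of the 6 libraries was left out, from Control replicate 1 to OX-LDL replicate 3, edgeR gave an adjusted p-value between 0.0518 and 0.137 and the log2 fold change stayed between -0.90 and -0.62.

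ERBB2 (ENSG00000141736; chromosome 17, 39687914 to 39730426, plus strand), the partner without a soluble ligand, had 4.53, 4.39 and 3.89 FPKM in Control, against 4.78, 5.44 and 4.59 FPKM in OX-LDL. The lowest OX-LDL library was just above the highest Control library. Its log2 fold change was 0.24, with a 95% interval from -0.00060 to 0.48 (edgeR adjusted p = 0.165), so that it was not called. EGFR exceeded ERBB2 by 17.1, 18.6 and 16.4 times in FPKM in the Control libraries and by 7.38, 7.42 and 8.23 times in the OX-LDL libraries. The share of EGFR in the summed FPKM of the 3 receptors was 93.5 ± 0.437% in Control and 87.5 ± 0.544% in OX-LDL (SD, n = 3 per group). The receptor sum itself was 79.5 ± 9.78 and 43.2 ± 2.95 FPKM. ERBB2 overlaps MIEN1 (441 to 1343 counts per library) and PGAP3 (504 to 833 counts) on the other strand, and if strand was not used in counting, their reads cannot be told apart.

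**Figure D2:**
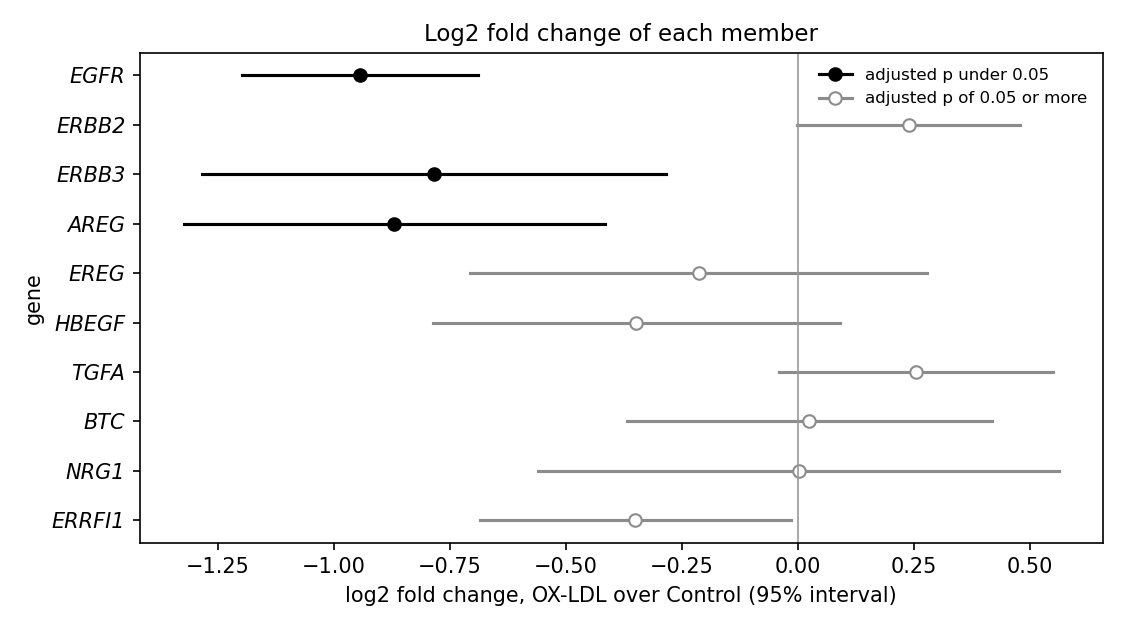
Log2 fold change of each member (OX-LDL over Control) from edgeR, with its 95% interval. Filled points had an adjusted p-value under 0.05. EGFR, ERBB3 and AREG lay between -0.94 and -0.79, and the intervals of ERBB2, EREG, HBEGF, TGFA, BTC and NRG1 included 0.

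Of the 6 ligands, the one called was AREG (amphiregulin; ENSG00000109321; chromosome 4, 74445136 to 74455005, plus strand). It had 26.8, 33.5 and 46.2 FPKM in Control, against 18.9, 20.4 and 17.7 FPKM in OX-LDL. The groups did not overlap, although the Control libraries were spread widely. The Control mean of 35.5 ± 9.87 FPKM stood against 19.0 ± 1.34 FPKM in OX-LDL (SD, n = 3 each), a log2 fold change of -0.87 (SE 0.19, edgeR adjusted p = 0.0276) and 54.7% of Control. The adjusted p-value was 0.0720 without Control replicate 2, 0.0902 without OX-LDL replicate 1, 0.0518 without OX-LDL replicate 2 and 0.0989 without OX-LDL replicate 3. Without Control replicate 3, the highest library, the gene was called with a log2 fold change of -0.63.

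EREG (epiregulin; ENSG00000124882; chromosome 4, 74365145 to 74388749, plus strand) lies beside AREG and also binds EGFR. It had 17.2, 18.1 and 29.8 FPKM in Control, against 18.4, 17.6 and 18.9 FPKM in OX-LDL. Only Control replicate 3 stood apart. It was also the highest library for AREG, where all Control libraries were above those of OX-LDL. The log2 fold change of EREG was -0.21 (95% interval -0.71 to 0.28, edgeR adjusted p = 0.548), and without Control replicate 3 it was 0.08. AREG was 1.56, 1.85 and 1.55 times as high as EREG in FPKM in the Control libraries and 1.03, 1.16 and 0.936 times as high in the OX-LDL libraries. These ratios did not overlap, and Control replicate 3 was not apart from the other Control libraries in them.

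HBEGF (ENSG00000113070; chromosome 5, 140332843 to 140346603, minus strand), which binds heparin as well as the receptor, had 10.4, 11.3 and 8.75 FPKM in Control, against 9.57, 5.93 and 7.96 FPKM in OX-LDL. The groups overlapped. The log2 fold change of HBEGF was -0.35 (95% interval -0.79 to 0.09, edgeR adjusted p = 0.262). TGFA (ENSG00000163235; chromosome 2, 70447284 to 70553826, minus strand), a ligand of EGFR, had 18.6, 16.4 and 21.4 FPKM in Control, against 23.2, 19.4 and 23.3 FPKM in OX-LDL. These groups overlapped too. The log2 fold change of TGFA was 0.26 (95% interval -0.04 to 0.55, edgeR adjusted p = 0.221).

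BTC (betacellulin; ENSG00000174808; chromosome 4, 74744759 to 74794523, minus strand) binds both EGFR and ERBB4. It had 2.72, 2.23 and 2.92 FPKM in Control, against 2.65, 2.33 and 2.86 FPKM in OX-LDL. The fitted log2 fold change was 0.03 (95% interval -0.37 to 0.42, edgeR adjusted p = 0.940), and it was -0.09 without Control replicate 2 and -0.05 with OX-LDL replicate 3 left out. NRG1 (neuregulin; ENSG00000157168; chromosome 8, 31639222 to 32855666, plus strand), the ligand of ERBB3, had 2.41, 3.70 and 3.31 FPKM in Control, against 3.51, 2.09 and 3.61 FPKM in OX-LDL. Each group held a library well below its others. The log2 fold change of NRG1 was 0.0019 (95% interval -0.56 to 0.56, edgeR adjusted p = 0.997), and it was -0.15 without Control replicate 1, -0.10 without OX-LDL replicate 1 and -0.13 without OX-LDL replicate 3. For neither gene did the data give a direction. The summed FPKM of the 6 ligands was 91.9 ± 18.1 in Control and 72.7 ± 4.49 in OX-LDL, and AREG made up 38.2 ± 3.53% and 26.2 ± 3.39% of it (SD, n = 3 per group).

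ERRFI1 (ENSG00000116285; chromosome 1, 8004404 to 8026309, minus strand), the feedback inhibitor, had 21.9, 20.6 and 22.0 FPKM in Control, against 19.97, 13.4 and 16.1 FPKM in OX-LDL. Each OX-LDL library was below each Control library. The mean was 21.5 ± 0.786 FPKM in Control, against 16.5 ± 3.31 FPKM in OX-LDL, with a log2 fold change of -0.35 (95% interval -0.69 to -0.02). The p-value in edgeR was 0.0426 unadjusted and 0.149 adjusted, so that it was not called, and no fit that left out 1 library called it (adjusted p = 0.0554 to 0.298). AL034417 overlaps ERRFI1 on the other strand, with 57 to 122 counts per library.

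**Figure D3:**
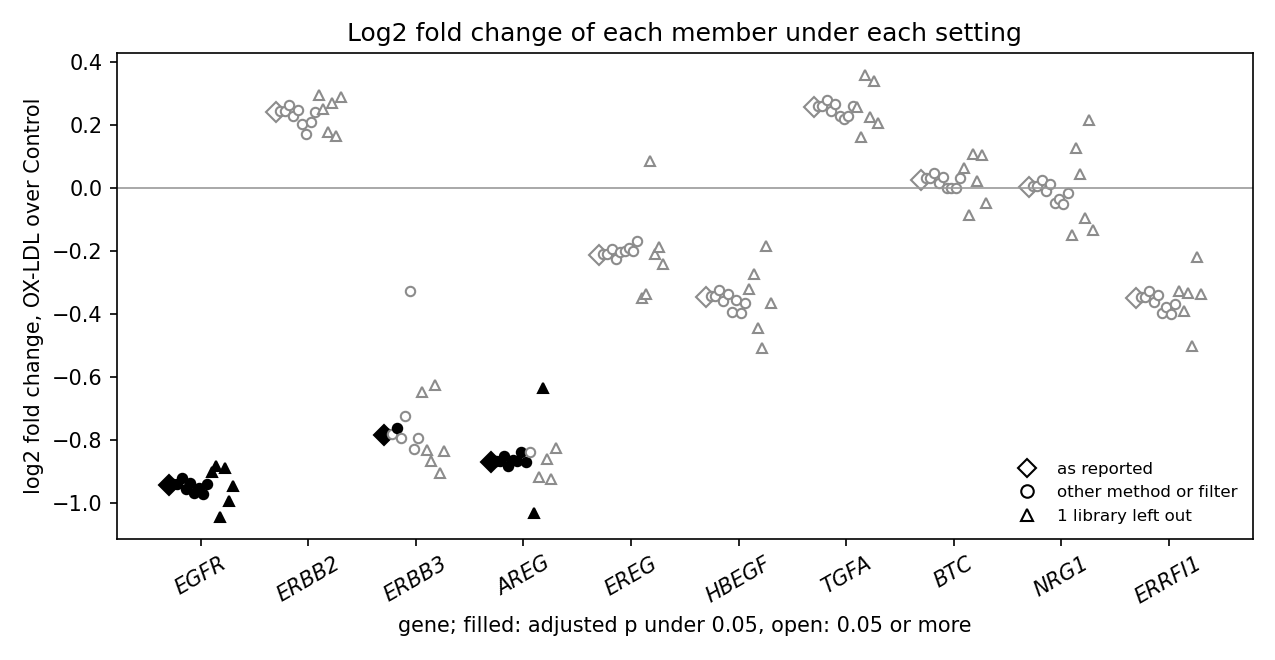
Log2 fold change of each member (OX-LDL over Control) as reported (diamond), with another method or filter (circles) and with 1 library left out (triangles). Filled symbols had an adjusted p-value under 0.05. All symbols of EGFR are filled, those of AREG in part, and ERBB3 has 3 filled symbols beside 12 open ones.

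In Control, the order of mean FPKM was EGFR (74.3), AREG (35.5), EREG (21.7), ERRFI1 (21.5), TGFA (18.8), HBEGF (10.2), ERBB2 (4.27), NRG1 (3.14), BTC (2.62) and ERBB3 (0.870). AREG and EREG overlapped in their library values, as did EREG and ERRFI1, ERRFI1 and TGFA, and NRG1 and BTC. The other neighbours in that order did not overlap. In OX-LDL, TGFA (22.0) stood in the second place, followed by AREG (19.0), EREG (18.3) and ERRFI1 (16.5). There TGFA and AREG overlapped, as did AREG and EREG, EREG and ERRFI1, and NRG1 and BTC. EGFR was apart from every other member in both groups.

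The promoter sequences of EGFR and AREG, the members with the larger falls, are shown with that of EREG, the neighbour of AREG that was not called. The table of RefSeq promoters used here (GRCh38.p14) was matched for 8 of the 10 members, and promoters of ERBB3 and NRG1 were not analysed here. Each runs from 250 bases before to 50 bases after the start of the gene. Capitals mark matches on either strand to TATAAA, the TATA box, to TGACGTCA, the cAMP response element, and to GGGCGG, the GC box. The AP-1 motif TGANTCA was also searched and was in none of the 3.
EGFR, chr7:55018767-55019066, plus strand: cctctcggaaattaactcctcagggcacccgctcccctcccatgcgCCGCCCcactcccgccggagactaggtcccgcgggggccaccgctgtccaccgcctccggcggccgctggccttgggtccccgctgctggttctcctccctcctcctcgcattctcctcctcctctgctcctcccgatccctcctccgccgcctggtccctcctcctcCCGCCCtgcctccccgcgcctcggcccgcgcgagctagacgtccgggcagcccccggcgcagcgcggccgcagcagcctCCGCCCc
AREG, chr4:74444886-74445185, plus strand: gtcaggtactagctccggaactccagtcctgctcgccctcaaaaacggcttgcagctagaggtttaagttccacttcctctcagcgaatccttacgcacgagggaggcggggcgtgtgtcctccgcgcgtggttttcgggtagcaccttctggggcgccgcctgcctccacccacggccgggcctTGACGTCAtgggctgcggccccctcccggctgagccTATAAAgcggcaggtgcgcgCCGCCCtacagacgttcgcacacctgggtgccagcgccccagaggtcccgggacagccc
EREG, chr4:74364895-74365194, plus strand: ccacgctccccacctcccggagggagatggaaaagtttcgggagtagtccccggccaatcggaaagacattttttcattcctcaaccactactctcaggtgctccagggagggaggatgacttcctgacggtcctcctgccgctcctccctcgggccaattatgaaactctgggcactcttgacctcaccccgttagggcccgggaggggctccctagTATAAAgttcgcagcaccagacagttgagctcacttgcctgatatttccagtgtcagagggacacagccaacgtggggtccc
EGFR held 3 GC boxes and no TATAAA, with 75.3% G and C. AREG held 1 TATAAA beginning 29 bases before the start, 1 cAMP response element beginning 65 bases before it and 1 GC box, with 66.3% G and C. EREG held 1 TATAAA beginning 32 bases before the start and neither of the other marked motifs, with 57.7% G and C. Of 35116 promoters of this length, 11.5% held TATAAA, 1.85% TGACGTCA, 45.0% GGGCGG and 7.71% TGANTCA, and their median G and C content was 58.7%. None of the 4 motifs contains another. A match describes the sequence and shows no binding.

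Of the other receptor and ligands of the family, EGF itself was the single gene above the minimum for the test. EGF had 1.25, 1.46 and 1.297 FPKM in Control, against 2.16, 1.55 and 1.75 FPKM in OX-LDL, so that the groups did not overlap. Its log2 fold change was 0.48 (95% interval 0.13 to 0.83, edgeR adjusted p = 0.0760), which was not called. Its adjusted p-value was 0.0469 without OX-LDL replicate 2 and 0.0210 in DESeq2. NRG2 and NRG3 had at most 4 counts in any library, EPGN at most 15 and NRG4 at most 19. ERBB4 had 4, 0 and 4 counts in Control, against 0, 12 and 34 in OX-LDL. It was thus not detectable at this depth in Control, and above the limit in 1 OX-LDL library.

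**Figure D4:**
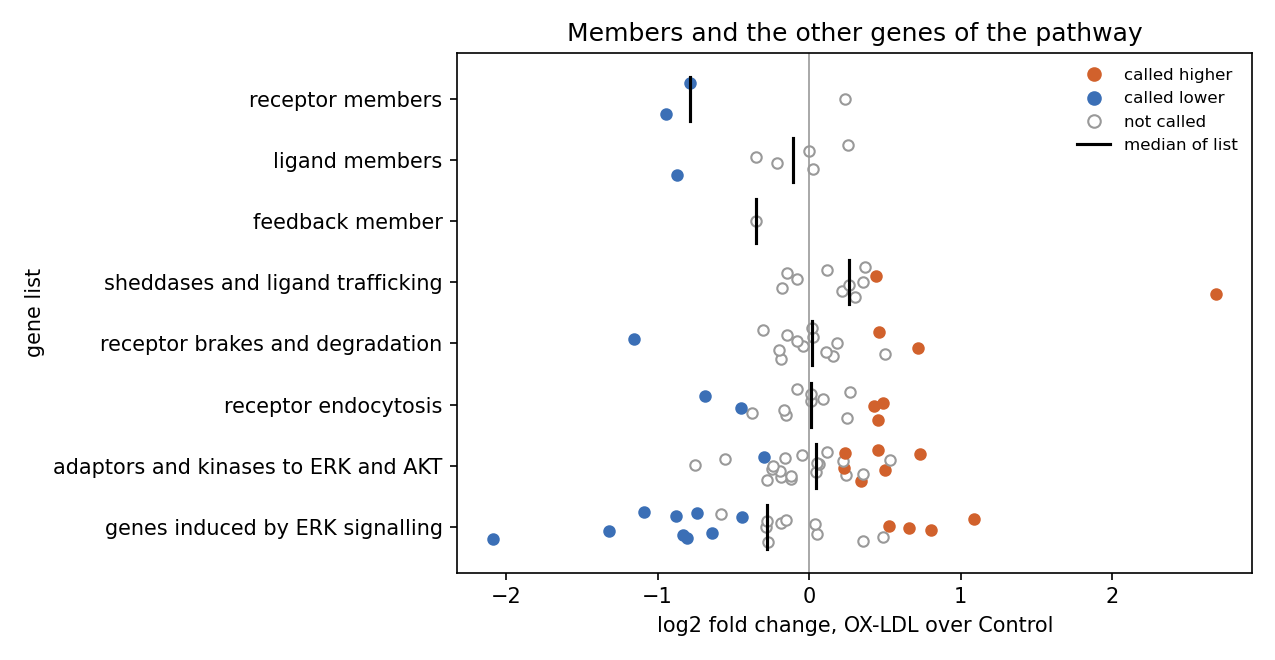
Log2 fold change (OX-LDL over Control) of every tested gene in the member groups and in 5 lists of the pathway, with filled points for genes called higher or lower at an adjusted p-value under 0.05 and a line at each list's median. The list of genes induced by ERK signalling has its median at -0.28, with 9 genes called lower and 4 called higher.

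The remaining genes of the pathway were counted by role, each count beside the 15.3% of all genes tested that were called. That share covers genes down to 0.1 FPKM. At a minimum of 1 FPKM the share was larger, with 3152 of 12259 genes called. The lists of sheddases, brakes, endocytosis, adaptors and ERK-induced genes then had 3, 3, 5, 10 and 13 calls. In the list of sheddases and ligand trafficking, 2 of 11 tested genes were higher and the median log2 fold change was 0.27. ADAM12, a protease that can release HBEGF, rose from a mean of 0.168 ± 0.0740 to one of 1.07 ± 0.0674 FPKM (SD, n = 3 per group), which is a log2 fold change of 2.69 (SE 0.31, edgeR adjusted p = 0.00428), and was called with any 1 library left out. NRDC, which binds HBEGF, had a log2 fold change of 0.44 and lost its call when Control replicate 2, Control replicate 3, OX-LDL replicate 1 or else OX-LDL replicate 3 was left out (edgeR adjusted p up to 0.0632). The count was then 1. ADAM17, the main protease for AREG and TGFA, was not called, with a log2 fold change of -0.18 (95% interval -0.42 to 0.06), nor was ADAM10 (0.30, adjusted p = 0.0634).

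Of the receptor brakes and degradation list, 2 of 15 tested genes were higher and 1 was lower, with the median at 0.02 on the log2 scale. PTPN1, a phosphatase that acts on EGFR, rose from a mean of 27.7 ± 0.893 to one of 44.6 ± 3.37 FPKM, with a log2 fold change of 0.72 (SE 0.08, edgeR adjusted p = 0.00358) and a call in each fit that left out 1 library. RNF41, a ubiquitin ligase of ERBB3, fell from a mean of 10.6 ± 2.77 to one of 4.64 ± 1.10 FPKM (log2 fold change -1.15, adjusted p = 0.0244 in edgeR). It was not called when Control replicate 2, Control replicate 3, OX-LDL replicate 1 or else OX-LDL replicate 3 was left out (adjusted p up to 0.0835). TNK2, a kinase tied to receptor traffic, had a log2 fold change of 0.46 and was not called whichever of the 6 libraries was left out (adjusted p = 0.0570 to 0.108). The count was 1 when Control replicate 2, Control replicate 3, OX-LDL replicate 1 or else OX-LDL replicate 3 was left out. DCN, also counted among the fibroblast markers, was at 0.

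In the receptor endocytosis list, 3 of 14 genes were higher and 2 were lower, with the median at 0.01 on the log2 scale. SH3KBP1, which links the ubiquitin ligase CBL to the endocytic machinery, fell from a mean of 29.5 ± 2.41 to one of 18.0 ± 0.543 FPKM (log2 fold change -0.69, SE 0.08, edgeR adjusted p = 0.00405). EPS15L1, a coat protein of clathrin pits, also fell, with a log2 fold change of -0.45. AP2M1, a subunit of the clathrin adaptor, and RAB11A, which guides recycling, rose by log2 fold changes of 0.46 and 0.49. These 4 genes were called in all 6 fits that left out 1 library. Among adaptors and kinases that lead to ERK and AKT, 6 of 26 genes were higher and 1 was lower, and the list's median was 0.05 on the log2 scale. MAP2K1, the kinase above ERK, rose from a mean of 12.05 ± 0.874 to one of 16.7 ± 0.510 FPKM (log2 fold change 0.50, adjusted p = 0.0106 in edgeR), and STAT3, a transcription factor downstream of EGFR, had a log2 fold change of 0.45. Both were called in all 6 fits. The gene that fell was PTPN11, a phosphatase needed for ERK activation, with a log2 fold change of -0.30. It was not called when Control replicate 1, Control replicate 2, OX-LDL replicate 1 or else OX-LDL replicate 3 was left out (adjusted p up to 0.0766). The count of this list was 2 without the first Control library or without the first or the last OX-LDL library (replicates 1 and 3), 3 without Control replicate 2 and 4 without Control replicate 3.

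The last list held genes known to be induced by ERK signalling. Of its 23 tested genes, 13 (56.5%) were called, 9 lower and 4 higher, and the median log2 fold change was -0.28. The 4 genes with the smallest p-values were all lower. DUSP5, a phosphatase of nuclear ERK, had 30.7, 40.1 and 25.3 FPKM in Control, against 8.52, 6.46 and 7.17 FPKM in OX-LDL, which gave a log2 fold change of -2.08 (SE 0.19, edgeR adjusted p = 0.00189). ETV5, a transcription factor of the ETS family, had 20.3, 21.7 and 20.6 FPKM in Control, against 8.96, 6.84 and 8.72 FPKM in OX-LDL, which gave a log2 fold change of -1.32 (SE 0.11). Both were well apart between the groups. SPRED2 and SPRY2, which inhibit the RAS-ERK pathway, had log2 fold changes of -0.88 and -0.74. All 4 were called in each fit that left out 1 library. The other 5 genes called lower were SPRY4, EPHA2, DUSP6, SPRED1 and ETV4, named after their values were seen, with log2 fold changes between -1.09 and -0.44. Each of these 5 lost its call without Control replicate 2 and also with OX-LDL replicate 3 left out. DUSP6, SPRED1 and ETV4 lost it without Control replicate 1 as well, DUSP6 and ETV4 without OX-LDL replicate 1, DUSP6 without Control replicate 3, and ETV4 without OX-LDL replicate 2 (edgeR adjusted p up to 0.0999).

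The 4 genes called higher are named here after their values were seen. They were PLAUR, the urokinase receptor (log2 fold change 1.09), FOSL1, an AP-1 subunit (0.81), HMGA2, a chromatin protein (0.66), and LIF, a cytokine (0.53), with adjusted p-values between 0.0182 and 0.0472 in edgeR. None of the 4 was called when Control replicate 1, Control replicate 2, OX-LDL replicate 1 or else OX-LDL replicate 3 was left out, nor LIF without Control replicate 3 (adjusted p up to 0.147). The count of the list was 6 without Control replicate 1, 4 without Control replicate 2, 7 without OX-LDL replicate 1 and 4 with OX-LDL replicate 3 left out. Over all genes, the 2991 calls went down to 1796, 1161, 1262 and 1163 in the same fits, and to 1993 without Control replicate 3. The list was written from general knowledge of the pathway, but with earlier results of these data known, so its share of calls is not independent of them. It does not measure ERK activity, which was not assayed in these libraries.

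**Figure D5:**
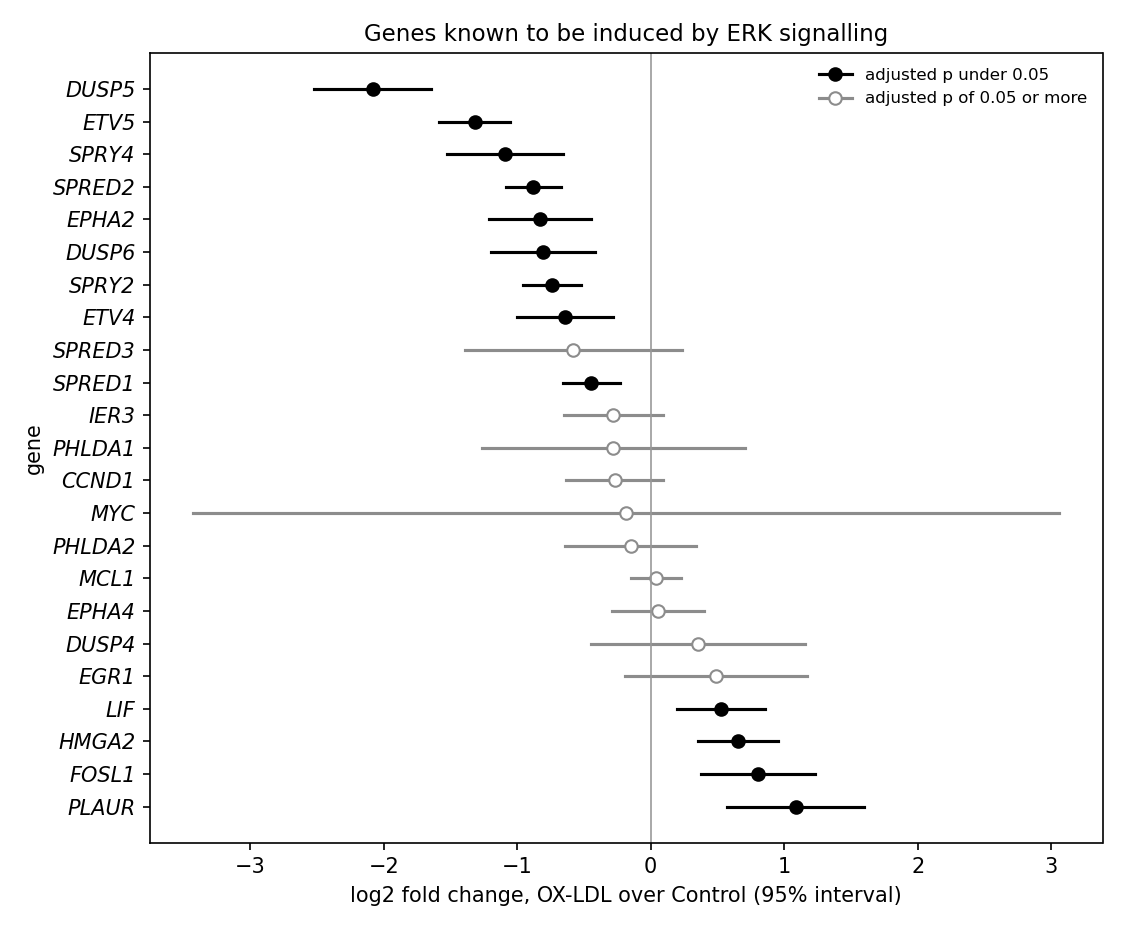
Log2 fold change (OX-LDL over Control) of the 23 tested genes known to be induced by ERK signalling, ordered by value, with 95% intervals from edgeR. Filled points had an adjusted p-value under 0.05. DUSP5 (-2.08) and ETV5 (-1.32) lie at one end and PLAUR (1.09) at the other.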

How the data were processed

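HK-2 RNA was sequenced in 3 Control and 3 OX-LDL libraries, grouped by title. The authors deposited 1 table of 58825 genes with estimated counts, not scaled for library size, and FPKM values, scaled by the authors per kilobase and for library size, with counts of 0 listed at 0.0001. The submitters' processing notes name cutadapt (1.9), HISAT2 (2.0.4), StringTie (1.3.4d), edgeR, DESeq2 and the GRCh38 build, without their roles. The library protocol keeps strand, but the sources used here do not say whether counting used it. The counts are whole numbers. Counts of 4, 8 and 12 occurred in 3.26, 2.95 and 2.13 times as many genes as neighbouring counts did, which was read as 4 counts per read pair.

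Genes averaging 0.1 FPKM or more (19510) were tested with edgeR (4.0.16, R 4.3.3), with TMM factors, glmQLFit and glmQLFTest, the group as the only term, two-sided, and Benjamini-Hochberg adjustment over all genes tested. The standard error (SE) was taken as log2 fold change over root F. The alternatives were DESeq2 (1.42.0), RLE and upper-quartile factors, no minimum or 1 FPKM, limma (3.58.1) on log2(FPKM + 0.1), + 1 or + 0.01, a replicate block and leaving out each library. The fits were run on data simulated from the same kind of model, as a check of the code only, which gives no support to the calls reported here. Pairs of libraries within a group gave a chi-square per gene between 14.9 and 25.6 on the scale of read pairs, so none was deposited more than once within its group. Pairs across the groups were not compared in this way. The labels do not say that the 3 libraries of a group came from separate cultures, although the study's methods describe its cell experiments as independent repeats, so p-values may cover technical spread only.

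The members and the gene lists were chosen with earlier results of these data known. All members were named, with at most 4 genes of each list by the smallest p-value, and ADAM17, the remaining called genes of the ERK list and the neighbours of EGFR and AREG were added after their values were seen. GGT1, a listed marker, was on more than 1 row of the table and was left out. Another listed marker is not reported here.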

Additional observations from a re-analysis of the deposited data

How the results depend on the processing

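EGFR was called under all 15 alternatives. Its log2 fold change was between -1.04 and -0.88 with 1 library left out and between -0.97 and -0.92 otherwise. AREG was called under 8 of 9 settings other than leaving out a library (the exception was the replicate block, -0.84, adjusted p = 0.0631), and its log2 fold change was between -1.03 and -0.63 with 1 library left out. ERBB3 was called with DESeq2 and upper-quartile factors and could not be tested at a minimum of 1 FPKM. Its log2 fold change was -0.78 with RLE factors (adjusted p = 0.0504), -0.79 without a minimum, -0.72, -0.33 and -0.83 in limma with pseudocounts of 0.1, 1 and 0.01, and between -0.90 and -0.62 with 1 library left out, all above the threshold. Libraries with the same replicate number shared little deviation from their group means (correlations of -0.0410, -0.00313 and 0.0356 for numbers 1 to 3). This cannot show whether they were prepared as pairs. With the replicate block, ERBB3 was at -0.79 (adjusted p = 0.125), 1 member was called, 1636 genes were called, and the lists of sheddases, brakes, adaptors and ERK-induced genes had 1, 1, 3 and 8 calls.

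Members called with 1 library left out numbered 1 to 2, and genes called 1161 to 2943. The direction of members near 0 turned. BTC was at -0.00090, -0.0014 and -0.00080 in limma with pseudocounts of 0.1, 1 and 0.01, and at -0.0868 to 0.1076 with 1 library left out. NRG1 was at -0.0111 without a minimum, -0.0488, -0.0343 and -0.0510 in limma with the same pseudocounts, -0.016 with the replicate block and -0.1498 to 0.2147 with 1 library left out. EREG was at -0.3496 to 0.0846 with 1 library left out. With 1 library left out, the lists had 0 to 1 calls (other receptor and ligands), 1 to 2 (sheddases), 1 to 2 (brakes), 2 to 6 (adaptors) and 4 to 12 (ERK-induced). DESeq2 called 1 gene of the other receptor and ligands and 4 sheddase genes, and it called 4430 genes in all. The adaptor list had 4 calls without a minimum and 4 in limma with each of the 3 pseudocounts. The causes were not tested. ERBB3 had 257 to 813 counts per library and BTC 520 to 689, and how much of their spread is counting error was not tested.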

Other observations

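Within 500 kb of EGFR on chromosome 7, 5 other genes could be tested. SEC61G, a subunit of the channel that passes proteins into the endoplasmic reticulum, was higher in OX-LDL, with a log2 fold change of 0.87 (edgeR adjusted p = 0.0165). It was not called when replicate 1 or 2 of Control, or 1 or 3 of OX-LDL, was left out (edgeR adjusted p up to 0.0670). The other 4, among them EGFR-AS1, were not called. Within the same distance of AREG on chromosome 4, 9 other genes could be tested and none was called. Among them, the chemokine genes CXCL2 and CXCL5 had log2 fold changes of -1.09 (edgeR adjusted p = 0.0905) and -0.38 (adjusted p = 0.174), beside -0.21 for EREG and 0.03 for BTC. The rest lay between -1.13 (CXCL3) and 1.47 (ENSG00000269559).

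The genes whose log2 normalised counts were most like those of EGFR over the 6 libraries, among 12258 other genes averaging 1 FPKM or more, were FAAP20 (Pearson's r = 0.9996), EXT1 (0.9975) and CWF19L2 (0.9970). These are descriptions over 6 points in 2 groups that share libraries and scaling, with no test. Their own log2 fold changes between OX-LDL and Control were -0.57, -0.50 and -0.44. FAAP20 and CWF19L2 lost their calls in the same 4 fits as SEC61G (edgeR adjusted p up to 0.0819 and 0.0895), while EXT1 was called in all 6.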
